A study of Mus musculus with 6 samples.

Results

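The keratins described here, 10 in all, belong to suprabasal layers and were measured in corneal epithelium with and without RelA: *Krt4*, *Krt13*, *Krt76* and *Krt78* of mucosal epithelia, *Krt1*, *Krt2* and *Krt10* of the epidermis, and *Krt23*, *Krt24* and *Krt80*. They were chosen by name, as the rows of the deposited table with these 10 gene symbols, out of 51 keratin genes and 17554 genes in all. The RNA came from corneal epithelium of C57BL/6 mice at 2 months of age, with 3 wild-type samples as the control and 3 samples labelled *Rela*-/- as the mutant, which were *Krt14-Cre; Rela* f/f mice. *Krt14-Cre* deletes the floxed part of *Rela*, the gene of an NF-κB subunit, in cells that use or once used the *Krt14* promoter, and thus also in limbus, conjunctiva, skin and oral mucosa. The study describes the samples as independent biological samples, and the labels do not say whether mice were pooled.

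Keratins form the intermediate filaments of epithelial cells, and each filament pairs a type I chain with a type II chain. Basal cells make K5 with K14, and cells that leave the basal layer switch to other pairs: K1 with K10 in the epidermis, K4 with K13 in mucosal epithelia such as those of the mouth, oesophagus and conjunctiva, and K3 or K5 with K12 in the cornea. Because of these habits, K1 and K10 in a cornea are read as epidermal features, and K4 and K13 as conjunctival or mucosal ones.

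Of the 10 keratins 7 were tested, and at an adjusted p under 0.05 (edgeR) *Krt13* was called lower and *Krt23* higher in mutant epithelium. By this rule 13.2% of all genes tested were called. Each of these 2 keratins lost its call in some of the fits without 1 sample, *Krt23* in most of them. *Krt4*, the filament partner of K13, was at 45.6 ± 23.7 FPKM in mutant samples against 92.1 ± 24.1 in controls (mean ± SD, n = 3 each), a difference that did not pass the test. The epidermal pair *Krt1* and *Krt10* lay between 2.03 and 3.97 FPKM in all samples, and *Krt2* and *Krt24* were at or below 1 count in every sample. FPKM is the deposited level, scaled by transcript length and by the reads of the sample, so it can be compared between genes.

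Upstream sequences are shown for the members that passed the test and, beside them, for *Krt10* as the epidermal keratin with the highest level here. RefSeq promoter windows of GRCm38.p6 were held for 7 of the 10 keratins (*Krt2*, *Krt10*, *Krt13*, *Krt23*, *Krt24*, *Krt76* and *Krt78*). All 3 genes lie on the minus strand of chromosome 11. Each line gives the 250 bases before the transcription start, 5′ to 3′, and capitals mark matches to the motifs searched.
Krt13, chr11:100121567-100121816, minus strand: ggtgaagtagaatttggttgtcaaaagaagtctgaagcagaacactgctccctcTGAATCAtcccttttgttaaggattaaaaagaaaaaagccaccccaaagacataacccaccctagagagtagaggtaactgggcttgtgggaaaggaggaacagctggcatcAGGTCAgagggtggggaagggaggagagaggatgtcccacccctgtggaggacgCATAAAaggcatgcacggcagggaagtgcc
Krt23, chr11:99493121-99493370, minus strand: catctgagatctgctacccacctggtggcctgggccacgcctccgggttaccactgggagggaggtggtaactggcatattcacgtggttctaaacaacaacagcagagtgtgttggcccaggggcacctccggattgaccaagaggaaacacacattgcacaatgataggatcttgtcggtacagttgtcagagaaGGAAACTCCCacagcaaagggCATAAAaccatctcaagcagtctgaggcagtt
Krt10, chr11:99389365-99389614, minus strand: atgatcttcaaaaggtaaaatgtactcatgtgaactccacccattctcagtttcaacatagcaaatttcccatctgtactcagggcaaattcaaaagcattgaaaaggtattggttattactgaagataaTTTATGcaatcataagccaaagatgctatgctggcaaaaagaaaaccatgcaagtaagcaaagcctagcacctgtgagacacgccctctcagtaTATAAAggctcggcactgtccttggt

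The motifs were chosen with these sequences and earlier results in view and were searched on both strands. The TATA box was searched as TATAAA. A variant of it that begins with C was searched as CATAAA. The AP-1 motif, bound by Fos and Jun proteins, was searched as TGANTCA. The half-site of retinoid and thyroid receptors was searched as AGGTCA, and NF-κB by its consensus motif, all with overlapping matches allowed. The window of *Krt10* held the TATA box from 26 to 21 bases before the start. *Krt13* and *Krt23* held the variant near the same place, from 30 to 25 and from 32 to 27 bases before the start. *Krt13* also had an AP-1 match from 196 to 190 bases and a receptor half-site from 84 to 79 bases before the start, and *Krt23* had an NF-κB match on the opposite strand from 53 to 44 bases before it. Of all 32851 promoter windows of this length, 12.4% held the TATA box, 10.8% the variant, 6.75% the AP-1 motif, 14.02% the half-site and 3.90% the NF-κB motif. Among the 7 members with a window, NF-κB and AP-1 matches were found in 1 member each (*Krt23* and *Krt13*), the TATA box in 2 (*Krt10* and *Krt76*), the half-site in 3 (*Krt13*, *Krt24* and *Krt78*) and the variant in 4 (*Krt10*, *Krt13*, *Krt23* and *Krt24*). In *Krt10* the variant was on the opposite strand (TTTATG as printed), from 120 to 115 bases before the start. In *Krt24* it lay from 146 to 141 bases before the start, so neither match was near the usual TATA place. RefSeq gives *Krt13* another start, whose window (chr11:100120578-100120827) held AP-1 matches at 2 places. These matches are letters in a window and do not show that a factor binds there.

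The total expected count was between 19492942 and 19733834 per sample, and 3 counts, taken as the detection floor, equal 0.152 to 0.154 CPM, the share of a sample's counts scaled to a common total. This floor covers counting error only. Spearman correlations were 0.990 to 0.995 within a genotype and 0.973 to 0.985 between genotypes. *Rela* was at 36.5, 34.7 and 33.4 FPKM in controls and at 4.93, 5.53 and 5.72 in mutants (log2 fold change -2.75, adjusted p = 5.5e-07, edgeR). All 8 corneal epithelium markers listed (*Krt12*, *Krt5*, *Pax6* and others) were above 3 counts in every sample, and *Krt12* alone reached 17005 to 21194 FPKM.

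The members covered a wide range of levels. *Krt13* was the highest in both genotypes and ranked 28 among all genes by mean FPKM in controls and 43 in mutants. *Krt80*, a type II keratin of differentiating cells in many epithelia, followed at rank 142 and 145. *Krt4* came next at rank 639 and 1461, then *Krt78* at 1389 and 1531, *Krt23* at 6818 and 5059, *Krt10* at 8680 and 9128, and *Krt1* at 9469 and 9664. Neighbours in this order did not overlap in FPKM in controls, down to *Krt76*. In mutants *Krt4* (19.8 to 66.2) and *Krt78* (36.6 to 51.9) overlapped, so their order was not resolved there. *Krt2* and *Krt24* shared the bottom of the order in both genotypes.

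**Figure D1:**
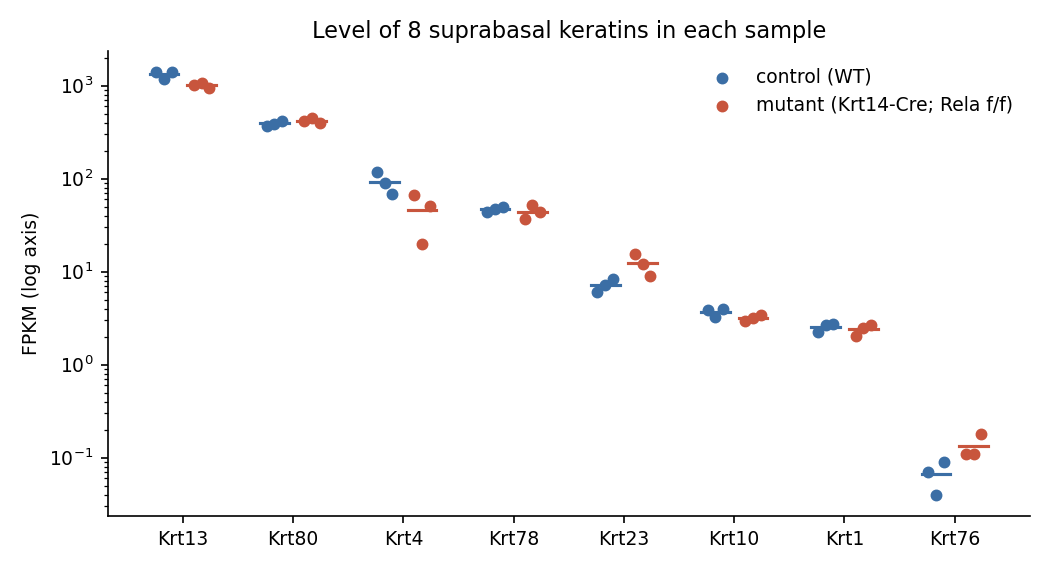
FPKM of 8 suprabasal keratins on a log axis, with 1 point per sample and a bar at the mean of the 3 samples of a genotype. *Krt13* points of the mutants (939 to 1061) lie below those of the controls (1191 to 1404), *Krt23* points lie above, and *Krt2* and *Krt24* are left out because most of their values are 0.

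Keratins of the mucosal type were compared first. *Krt13*, a type I keratin gene (chr11:100117327-100121566, GRCm38, minus strand), was at 1392, 1191 and 1404 FPKM in controls and at 1014, 1061 and 939 in mutants. Every mutant sample was below every control sample. The means were 1329 ± 120 and 1004 ± 62 FPKM (SD, n = 3 each), 1.36-fold lower in mutants. The log2 fold change was -0.45 (SE 0.097), with an adjusted p of 0.0152 (quasi-likelihood test of edgeR, Benjamini-Hochberg over the 12667 genes tested). This call was lost without control 1 (adjusted p = 0.0625, edgeR) or control 3 (0.0657).

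*Krt4*, a type II keratin gene (chr15:101918535-101924735, GRCm38, minus strand), was at 117, 90.6 and 68.9 FPKM in controls and at 66.2, 19.8 and 50.9 in mutants. All mutant values were below all control values, but mutant 1 lay close to control 3, and the mutants spread over 3.35-fold. The log2 fold change was -1.01 (SE 0.35, 95% interval -1.81 to -0.22), a 2.02-fold lower level, with an adjusted p of 0.0913 (edgeR), so *Krt4* was not called. Without mutant 1 the log2 fold change was -1.39 and passed (adjusted p = 0.0199, edgeR), and without mutant 2 it was -0.66 and did not (0.0845).

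The ratio of *Krt4* to *Krt13* FPKM asks whether the partners moved in step. It was 0.0840, 0.0761 and 0.0490 in controls and 0.0653, 0.0186 and 0.0543 in mutants. The groups overlapped (exact permutation test, two-sided p = 0.3, where 0.1 is the smallest p that 3 against 3 samples can give). *Krt4* was the lowest against *Krt13* in mutant 2. The log2 ratio differed by -0.75 between mutants and controls, by -0.19 without mutant 2 and by -1.10 without mutant 1.

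*Krt78*, a type II keratin described in tongue and other stratified epithelia, was at 43.2, 46.8 and 49.8 FPKM in controls and at 36.6, 51.9 and 43.4 in mutants. The groups overlapped, and the log2 fold change of -0.088 had a 95% interval from -0.36 to 0.19 (adjusted p = 0.691, edgeR). *Krt76*, a type II keratin of the palate and gingiva, had 2.99, 2.01 and 4.01 expected counts in controls and 5.05, 5.19 and 8.08 in mutants. It did not pass the filter on low counts and was not tested, and its values of 0.04 to 0.18 FPKM are near the floor.

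These samples held no clear sign of goblet cells, the mucin-secreting cells of the conjunctiva. *Muc5ac*, *Muc5b* and *Foxa3* were at or below 3 counts in every sample, 2 of the 6 listed goblet cell genes in the table were above 3 counts in each, and their summed level was 1.25 to 2.37 CPM in controls and 1.24 to 1.71 in mutants. The summed corneal epithelium markers were lower in mutants, at 78743 to 86042 CPM against 89264 to 99176. Much of this sum came from *Krt12* (31228 to 33883 CPM in mutants and 34007 to 39273 in controls) and *Krt5* (23850 to 28562 over all samples). In CPM every mutant was below every control for *Krt12*, while its FPKM overlapped. The CPM of *Krt5* overlapped. Neither *Krt12* nor *Krt5* was called (adjusted p = 0.263 and 0.591, edgeR). The part of these markers in the *Krt13* difference was not tested. In bulk RNA, fewer cells of a type and less RNA per cell cannot be told apart.

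Keratins of the epidermal type were low in every sample. *Krt10*, the type I chain, was at 3.85, 3.27 and 3.97 FPKM in controls and at 2.93, 3.18 and 3.44 in mutants. The groups overlapped, and the log2 fold change was -0.22 (95% interval -0.53 to 0.09, adjusted p = 0.332, edgeR). *Krt1*, its type II partner, was at 2.24, 2.66 and 2.74 FPKM in controls and at 2.03, 2.46 and 2.67 in mutants. Its log2 fold change was -0.097 (95% interval -0.45 to 0.25, adjusted p = 0.730, edgeR). The upper ends of these intervals correspond to increases well below a log2 fold change of 1.

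The ratio of *Krt1* to *Krt10* was 0.582, 0.813 and 0.690 in controls and 0.693, 0.774 and 0.776 in mutants, and did not separate the groups (exact permutation p = 0.6, two-sided). *Krt2*, a keratin of upper epidermal layers, had 1, 0 and 0 counts in controls and 0, 1 and 0 in mutants. At this depth a level under the floor of 3 counts could not have been seen. The listed genes of eyelid epidermis and hair follicle, which a dissection could carry along, summed to 13.9 to 16.4 CPM in controls and 11.99 to 21.4 in mutants, with 9 of the 16 in the table, *Flg2* among them, at or below 3 counts in every sample.

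The deposited table places *Krt1* and *Krt10* on the plus strand, whereas GENCODE gives minus, and it counts both, as well as *Krt78*, together with transcripts from RNAcentral. Lengths implied by counts and FPKM were 2457 to 2463 bases for *Krt1* (mRNA 2455), 2118 to 2168 for *Krt10* (mRNA 2094) and 3448 to 3449 for *Krt78* (mRNA 3437). For *Krt4* they were 2146 to 2147 (mRNA 2133) and for *Krt23* 1551 to 1553 (mRNA 1565). *Krt13* varied more between samples, from 1597 to 1667 (longest mRNA 1654), and *Krt80* was shorter than its longest mRNA, at 2729 to 2822 against 3067. The FPKM of these genes rests on such lengths. An antisense transcript overlaps 6.91% of the exon bases of *Krt10*, 4.80% of *Krt76* and 4.11% of *Krt80*. The other members overlapped no other gene, and their transcripts shared no 50-base window with one.

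The remaining members differed from each other. *Krt23*, a type I keratin gene (chr11:99477973-99493110, GRCm38, minus strand) known from stress and glandular epithelia, was at 5.99, 7.22 and 8.31 FPKM in controls and at 15.6, 12.02 and 9.06 in mutants. Each mutant value was above each control value, by little in mutant 3. The means were 7.17 ± 1.16 and 12.2 ± 3.3 FPKM (SD, n = 3 each), 1.70-fold higher, with a log2 fold change of 0.77 (SE 0.20, adjusted p = 0.0360, edgeR). Leaving out any 1 of control 1, control 2, control 3, mutant 1 or mutant 2 ended this call, with adjusted p from 0.0537 to 0.124 (edgeR).

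*Krt80* was at 371, 390 and 420 FPKM in controls and at 417, 446 and 394 in mutants. The groups overlapped, and the log2 fold change was 0.11 (95% interval -0.09 to 0.31, adjusted p = 0.458, edgeR). *Krt24*, a type I keratin of terminally differentiating cells, was at or below 1 count in every sample.

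Over the list, 7 of the 10 members passed the filter on low counts and 2 of these 7 were called at an adjusted p under 0.05, 1 in each direction. By the same rule 13.2% of all genes tested were called, 7.82% higher and 5.42% lower. At the stricter thresholds of the study's methods, which ask for a fold change of 2 or more and an adjusted p no higher than 0.001, edgeR and DESeq2 each called 0 members. Over all genes edgeR called 1.37% at these thresholds (1.31% higher and 0.0553% lower) and DESeq2 2.61%. At an unadjusted p under 0.05, 3 members passed in edgeR, against 28.1% of all genes tested. For 3 of the 7 the CPM of the groups did not overlap (2 lower, *Krt13* and *Krt4*, and 1 higher, *Krt23*), against 33.7% of all genes (16.4% lower and 17.3% higher). The median log2 fold change of the 7 was -0.10, with 5 below 0, and that of all genes tested was -0.003.

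**Figure D2:**
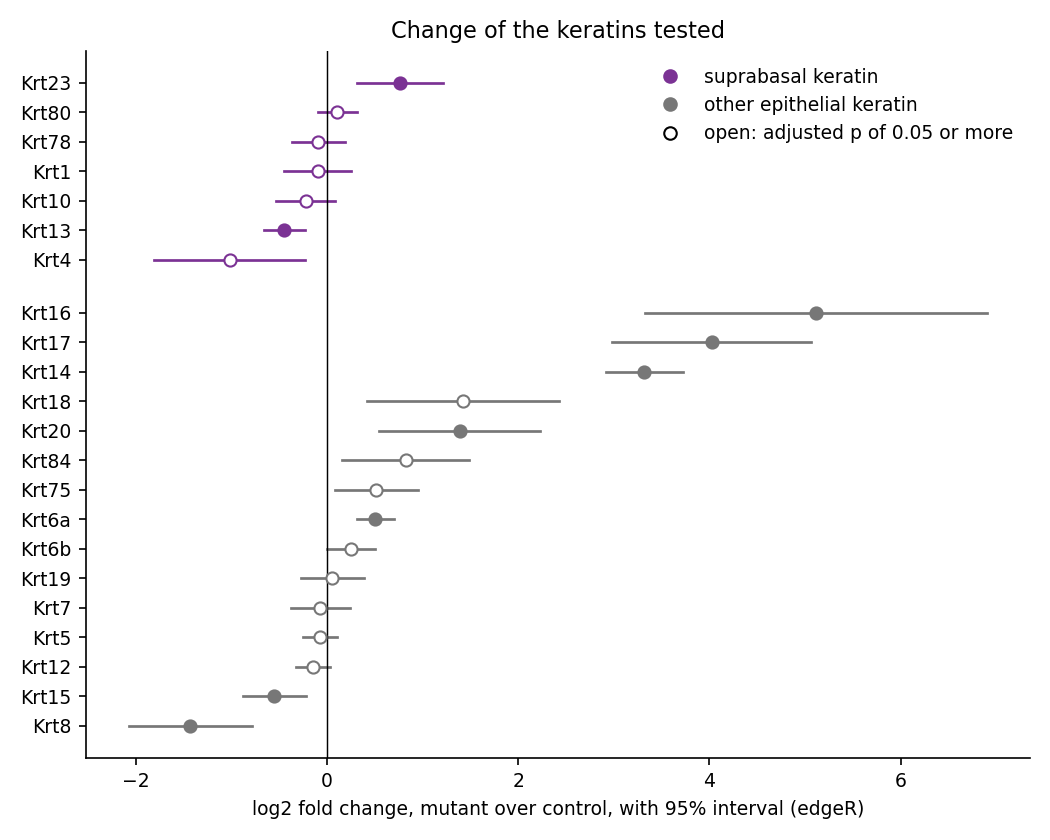
Log2 fold change of mutants over controls (edgeR) for the 7 suprabasal keratins and the 15 other epithelial keratins tested, with 95% intervals and filled points at an adjusted p under 0.05. Among the suprabasal keratins, *Krt23* (0.77) and *Krt13* (-0.45) are filled, and *Krt4* (-1.01) has the widest interval, while *Krt14*, *Krt16* and *Krt17* lie above 3.

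Together the 10 members summed to 1936, 1731 and 1958 FPKM in controls and 1554, 1596 and 1442 in mutants, and every mutant was below every control (exact permutation p = 0.1, two-sided, the smallest possible). The sum over all 51 keratins overlapped, at 38814 to 43753 FPKM in controls and 42604 to 44062 in mutants (exact p = 0.3). The members made up 4.81%, 4.46% and 4.48% of this sum in controls and 3.65%, 3.62% and 3.37% in mutants (exact p = 0.1). Without *Krt12*, the most abundant keratin, the share was 8.83 ± 0.25% and 6.15 ± 0.24% (SD, n = 3 each). The keratins *Krt6a*, *Krt6b*, *Krt14*, *Krt16* and *Krt17* of basal and wounded epithelium, which are part of the same sum, summed to 6155 ± 599 in controls and 10978 ± 1268 FPKM in mutants (SD, n = 3 each) with no overlap (exact p = 0.1). No p of this kind could pass 0.05 with 3 samples per genotype.

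Within the members, *Krt13* held a smaller and *Krt80* a larger part of the sum in every mutant than in any control. *Krt13* gave 70.8 ± 1.8% of the members' FPKM in controls and 65.6 ± 0.8% in mutants, and *Krt80* gave 21.05 ± 1.71% and 27.4 ± 0.6% (SD, n = 3 each, exact p = 0.1 for each, groups not overlapping). *Krt23* gave 0.384 ± 0.064% and 0.795 ± 0.190%. Shares of a sum are not independent of each other, and the FPKM of *Krt80* itself did not separate the genotypes.

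**Figure D3:**
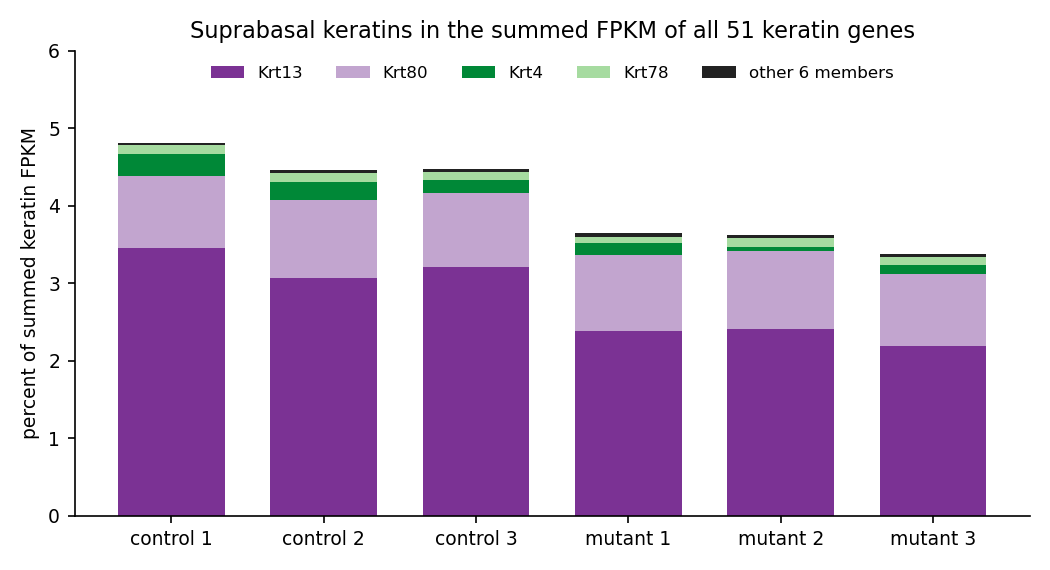
Stacked bars of the percent of the summed FPKM of all 51 keratin genes given by each suprabasal keratin, 1 bar per sample. The stacks end between 4.46% and 4.81% in controls and between 3.37% and 3.65% in mutants, and most of the lower height lies in *Krt13*.

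Genes around these keratins were read from lists chosen with earlier results in view. The counts of each list stand beside 7.82% of all genes tested called higher and 5.42% called lower (adjusted p under 0.05, edgeR). Of 15 other epithelial keratins tested, 5 rose and 2 fell at an adjusted p under 0.05 (median log2 fold change 0.51). The rises were *Krt14*, the basal type I keratin (178 ± 27 to 1753 ± 394 FPKM, SD, n = 3 each), the wound keratins *Krt16* (41.3 ± 50.1 to 1451 ± 356), *Krt17* (4.03 ± 0.40 to 65.4 ± 46.6) and *Krt6a* (2688 ± 199 to 3832 ± 148), and *Krt20*, known from intestine and near the floor here (0.157 ± 0.046 to 0.423 ± 0.093). Control 3 was well above the other controls in *Krt16*, at 3014 counts against 441 and 315. The falls were *Krt15*, a keratin of basal and limbal cells (947 ± 24 to 649 ± 155 FPKM), and the simple-epithelium keratin *Krt8* (2.89 ± 0.18 to 1.08 ± 0.51). The calls of *Krt20* and *Krt15* were each lost in 5 of the 6 fits without 1 sample, all but that without mutant 1 (adjusted p 0.0648 to 0.144 and 0.0594 to 0.127, edgeR), and *Krt20* was not called in DESeq2 (adjusted p = 0.140).

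Of 32 genes of mucosal suprabasal differentiation tested, 15 rose and 0 fell at an adjusted p under 0.05 in edgeR, with 25 fold changes above 0 and 7 below on the log2 scale (median log2 fold change 0.46, and the same with the 3 genes at the control floor set to their bounds). The cornified envelope precursor *Sprr1b* had 0 counts in each control and 4880, 2537 and 4575 in mutants. *Sprr3*, of the same family, had 0, 0 and 1 counts in controls and 98, 55 and 67 in mutants. *Ly6d*, a surface marker of stratified epithelia, rose from 1.33 ± 0.36 to 25.2 ± 9.2 FPKM, and *Dmkn* (dermokine) from 0.583 ± 0.247 to 83.0 ± 55.2 (SD, n = 3 each).

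Of 19 genes of epidermal suprabasal differentiation tested, 8 rose and 2 fell (median log2 fold change 0.83). *Sbsn* (suprabasin) rose from 2.89 ± 0.29 to 55.6 ± 15.5 FPKM and the protease gene *Klk7* from 0.123 ± 0.081 to 4.73 ± 1.69 (SD, n = 3 each). *Rptn* (repetin) had 1, 1 and 4 counts in controls and 31, 34 and 29 in mutants, and the lipid transporter gene *Abca12* had 2, 1 and 0 and then 156, 38 and 101. The falls were the desmosomal *Dsg1a* (297 ± 21 to 186 ± 12 FPKM) and *Calml3* (4385 ± 221 to 3500 ± 125). Among epidermal keratins *Krt1* and *Krt10* were tested, and neither was called.

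Of 32 regulators tested, transcription factors and receptors known to act on differentiating keratinocytes, 7 rose and 1 fell (median log2 fold change 0.03). *Cebpb* rose from 9.21 ± 0.27 to 14.4 ± 0.7 FPKM, *Vdr*, the vitamin D receptor gene, from 5.83 ± 0.06 to 9.37 ± 1.39, and *Barx2* from 0.583 ± 0.200 to 2.34 ± 0.67 (SD, n = 3 each). The fall was *Pou2f3*, a POU factor of suprabasal keratinocytes and tuft cells, from 6.09 ± 0.32 to 3.61 ± 0.86 FPKM. Of 8 corneal epithelium markers 0 rose and 1 fell, *Aldh3a1* (12918 ± 324 to 10871 ± 569 FPKM, adjusted p = 0.0466, edgeR).

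**Figure D4:**
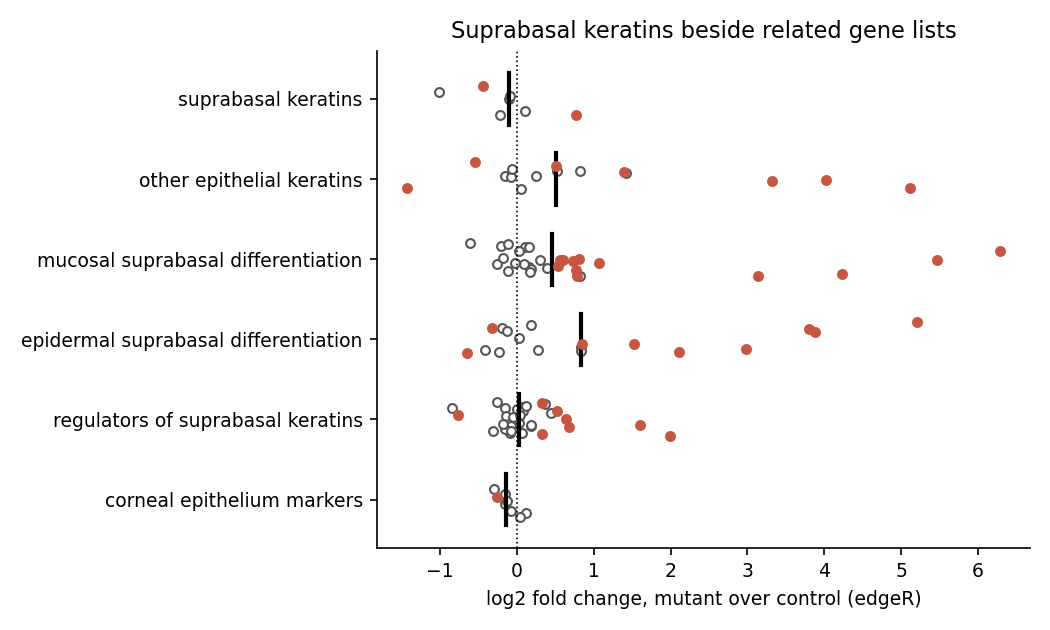
Log2 fold change (edgeR) of each tested gene in 6 lists, with filled points at an adjusted p under 0.05, a black bar at the list's median and a dotted line at the median of all genes tested. Genes at or below 3 counts in every control are not drawn, and the suprabasal keratins (median -0.10) lie to the left of the mucosal (0.46) and epidermal (0.83) differentiation lists.

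Some markers of other cell types moved with genotype. The listed immune cell genes summed to 324 to 358 CPM in controls and 376 to 1280 in mutants, where *S100a8* and *S100a9*, which stressed keratinocytes also express, accounted for the calls (2 of 5 tested). The macrophage gene *Adgre1* was at or below 3 counts in every sample. The highest mutant in *S100a9* was mutant 1, at 13515 counts against 2646 and 1966. Mutant 1 was also the highest mutant in *Krt23* and *Krt4*. It was the lowest in *Krt1*, *Krt10* and *Krt78*, and lay between the other mutants in *Krt13* and *Krt80*. Listed stromal keratocyte genes summed to 0.560 to 0.958 CPM in controls and to 1.85 to 10.03 in mutants, and the 1 of them tested, *Dcn* (decorin), was called higher, with 1 to 3 counts in controls and 14 to 66 in mutants. *Kera* was at or below 3 counts in every sample. Listed vascular endothelium genes summed to 0.101 to 0.418 CPM in controls and 0.463 to 0.748 in mutants. Among them *Cdh5*, *Kdr* and *Tek* were at or below 3 counts in every sample. No listed vascular gene was above 3 counts in every sample and none was tested, so the vascular sums rest on few counts. For immune, stromal and vascular genes every mutant sum was above every control sum. The part of these markers in the keratin differences was not tested.

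**Figure D5:**
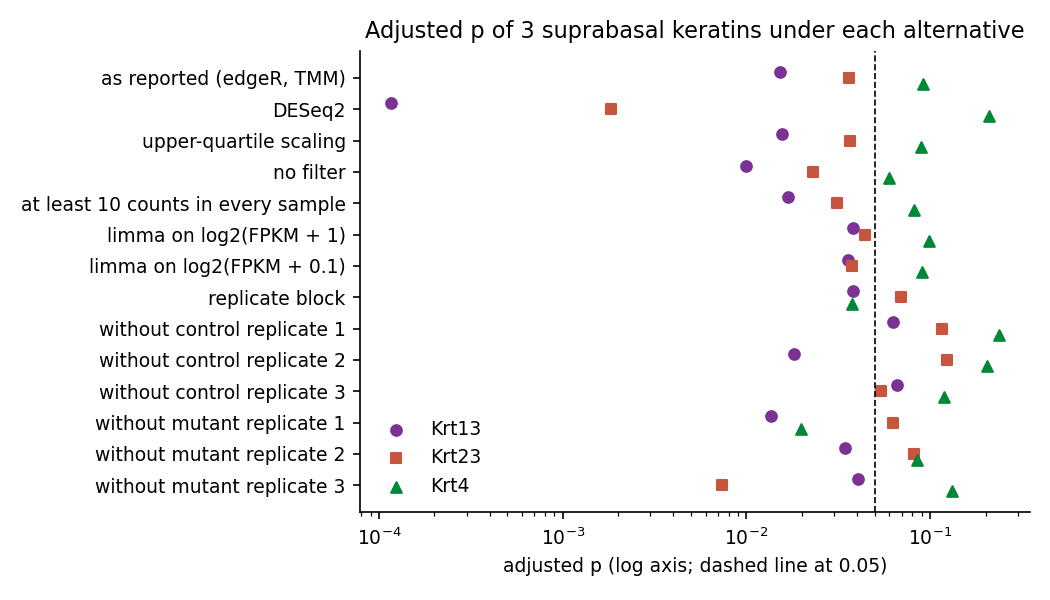
Adjusted p (log axis) of *Krt13*, *Krt23* and *Krt4* as reported and under each of 13 alternatives, with a dashed line at 0.05. *Krt13* stays left of the line except without control 1 or control 3, *Krt23* crosses it with the replicate block and in 5 of the 6 fits without 1 sample, and *Krt4* is left of it only with the replicate block and without mutant 1.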

How the data were processed

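Corneal epithelial RNA of 3 control and 3 mutant samples was measured by bulk RNA-seq. Per the study's methods, rRNA was removed, single-end reads of 50 bases were sequenced on a BGISEQ-500, filtered with SOAPnuke and aligned with Bowtie2 2.2.5. The authors deposited expected counts per gene from RSEM 1.2.12, of which 31.5% to 32.2% per sample are not whole, and FPKM values, scaled by transcript length and sample total. For some genes of a list given elsewhere by the study, mutant values differ from the deposited FPKM. That list holds no keratin, so it gave no check of the keratin values. The deposited values were used throughout. The labels name mm9 and an Illumina kit, but accessions and coordinates in the table are those of GRCm38, and 5916 of 17434 matched genes have the same start and end as in RefSeq. Whether counting used strand is not given in the sources used here. The authors also deposited log2 fold changes with p-values and q-values from DEGseq, which were not used.

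Expected counts were rounded and tested across all genes with edgeR 4.0.16 (R 4.3.3), with TMM scaling, filterByExpr (minimum count 10, minimum total 15), the quasi-likelihood test and Benjamini-Hochberg adjustment over 12667 genes. Each standard error was obtained by dividing the absolute log2 fold change by the root of F, and 95% intervals use the test's degrees of freedom. Sums, shares and ratios were tested by exact two-sided permutation. Alternatives tried were upper-quartile scaling, DESeq2 1.42.0, other filters, limma 3.58.1 on log2(FPKM + 1) and log2(FPKM + 0.1), a replicate block and each sample left out, and they were applied to the other epithelial keratins after the data were seen. On simulated data edgeR recovered 89.5% of the genes changed by the smaller fold (2) and 99.05% of those changed by the larger (4), among 200 changed of 12667, with 13 false calls. The simulation gave genes of like level the same spread and changed no genes with few counts. Its shares therefore need not hold for low genes or for genes that vary more between samples.

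The 10 keratins, the gene lists and the motifs were chosen with earlier results of these data known. Genes named are the 10 keratins, *Rela* and up to 4 tested genes per list with the smallest adjusted p. Not every gene this covers is reported here. *Krt15*, *Krt8*, *Krt20*, *Dsg1a*, *Calml3* and *Pou2f3* were named after their values were seen, to complete short counts. Windows of 50 bases and exon overlaps were counted in GENCODE vM21. P-values of the fits set the difference between genotypes against the spread between these samples. Permutation p-values set it against other assignments of the same samples to the groups. Neither kind covers a litter or batch that samples may have shared.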

Additional observations from a re-analysis of the deposited data

How the results depend on the processing

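The number of suprabasal keratins called at an adjusted p under 0.05 was 2 with edgeR and 2 under DESeq2, upper-quartile scaling, both other filters, both limma fits and the replicate block, and 0 to 2 when 1 sample was left out (0 without control 1 or control 3, 1 without control 2 or mutant 2). Over all genes tested the share called was 13.2% with edgeR, 14.4% with DESeq2, 11.2% with the replicate block, 8.71%, 6.66% and 7.76% without control 1, 2 and 3, and 14.6%, 9.23% and 11.2% without mutant 1, 2 and 3. At the thresholds of the study the number of suprabasal keratins called was 0 in each of the 13 alternatives. The share of all genes tested called at these thresholds ran from 0.28% (without control 2) to 2.61% (DESeq2). Same-numbered samples did not deviate together (correlations 0.019, 0.048 and -0.046) more than samples of unlike number (-0.077 to 0.064). This check saw no pairing by number, and it cannot show whether samples shared a litter or a batch. With the replicate block the calls were *Krt13* (log2 fold change -0.44, adjusted p = 0.0379, edgeR) and *Krt4* (-1.13, adjusted p = 0.0374), while *Krt23* (0.74) was at 0.0689. In DESeq2 the adjusted p was 0.000116 for *Krt13*, 0.00184 for *Krt23* and 0.209 for *Krt4*. Signs turned without mutant 1 for *Krt1* (0.000637, range -0.19 to 0.000637 with 1 sample left out) and *Krt78* (0.0230, range -0.23 to 0.0230), and without 1 control for the log2 ratio of *Krt1* to *Krt10*, which ranged from -0.00537 to 0.24. The members' share of keratin FPKM differed by -1.03 percentage points, by -0.92 to -1.09 with 1 sample left out, by -0.86 on counts and by -2.67 without *Krt12*, whose removal makes the sum smaller. The other epithelial keratins gave 5 to 9 calls, and *Krt20* was also not called without a filter (adjusted p = 0.0609) or with the replicate block (0.0952). The causes of lost calls were not tested, and fits without a sample rest on fewer samples. With 3 counts as the floor, *Krt2* and *Krt24* could not be compared at this depth.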

Other observations

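Keratin genes lie in a type I cluster on chromosome 11 and a type II cluster on chromosome 15, where the type I gene *Krt18* also lies. The tested gene beside each called member, *Krt13* and *Krt23*, was called in the member's direction. The tested gene beyond it was not called. *Krt13* lies beside *Krt15* (log2 fold change -0.55, adjusted p = 0.0389, edgeR) and 1 gene further lies *Krt19* (0.06, adjusted p = 0.835). *Krt23* lies beside *Krt20* (1.39, adjusted p = 0.0390, edgeR), and beyond it is *Krt12* (-0.15, adjusted p = 0.263). *Krt4* lies beside *Krt76* and *Krt79*, both too low to test, and *Krt78* lies between *Krt79* and *Krt8* (-1.43, adjusted p = 0.0105, edgeR). The calls of *Krt15* and *Krt20* were each lost in 5 of the 6 fits without 1 sample. These genes were described after their values were seen.

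The table held 27 type I and 24 type II keratin genes, 18 of the 51 at or below 3 counts in every sample. Type I keratins summed to 22289 ± 1410 FPKM in controls and 23302 ± 501 in mutants, and type II to 18650 ± 1165 and 19835 ± 348 (SD, n = 3 each), with overlapping groups. Melanocyte genes summed to 10.8 to 12.5 CPM in controls and 11.2 to 13.3 in mutants.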
